A study of Mus musculus with 13 samples.

Results

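Among 55291 gene symbols counted in the CA1 region of mouse tissue cultures, 9 of the genes for pore-forming channel subunits of neurons are described: the sodium channel genes Scn1a, Scn2a, Scn3a and Scn8a, the calcium channel genes Cacna1a, Cacna1b, Cacna1c and Cacna1e, and Hcn2 of the HCN channels. They are a subset of such genes, matched by symbol, and all 9 were found in every library. RNA was sequenced from 13 CA1 isolates, each from 1 organotypic entorhino-hippocampal culture of wildtype C57BL/6 mice. The cultures were prepared at postnatal day 4 to 5 and matured in vitro for 18 days or more before use. Non-lesioned cultures served as controls (5), and 4 cultures were taken 3 days after a Schaffer collateral lesion (SCL), which cuts the axons from CA3 to CA1, and 4 taken 3 days after an entorhinal cortex lesion (ECL), which cuts the perforant path. The growth protocol names C57BL/6J and Thy1-eGFP-M mice, the latter with sparsely labelled neurons, of either sex, and such cultures keep the entorhinal input but lack inputs from brain regions outside the slice. The titles name CA1, but the text of the extraction protocol mentions the dentate gyrus. CA1 is taken as the tissue here.

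Voltage-gated sodium channels open on depolarization and carry the rising phase of the action potential. Voltage-gated calcium channels turn the same depolarization into calcium entry, which drives transmitter release at the terminal, dendritic excitability and signaling to the nucleus. HCN channels open on hyperpolarization and pass a mixed cation current that shapes the integration of inputs in the dendrites of CA1 pyramidal cells.

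On GRCm38, the annotation (GENCODE M21) places Scn3a (65457118 to 65567627, minus strand), Scn2a (65620771 to 65767447, plus strand) and Scn1a (66270778 to 66440840, minus strand) in a cluster on chromosome 2. Scn8a lies on chromosome 15 (100869858 to 101045938), Cacna1a on chromosome 8 (84388440 to 84640246), Cacna1b on chromosome 2 (24603887 to 24763152), Cacna1c on chromosome 6 (118587240 to 119196418), Cacna1e on chromosome 1 (154390731 to 154884501) and Hcn2 on chromosome 10 (79716634 to 79736108). For 8 of them the longest annotated transcript has between 7926 bases (Cacna1a) and 14921 bases (Cacna1e), with a GC content from 42.1% in Scn3a to 58.4% in Cacna1a. Hcn2 stands apart with 3195 bases and 65.4% GC. Reads could be told apart between the clustered genes over nearly their whole length: at least 97.8% of the 100-base stretches of each member occur in no other annotated gene, with the lowest share in Scn3a, which shares stretches with Scn1a, Scn2a and Scn9a. Counting took no account of strand, and 3.81% of the exon bases of Cacna1a lie opposite to Gm16183, an antisense gene of which no library held more than 7 counts.

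Upstream sequence is given for 3 genes picked by their calls: Scn1a, called lower after both lesions, Cacna1b, called after neither, and Hcn2, counted very low and called higher after ECL with a lower count minimum. Whether these genes differ in their response was not tested, nor was any link between response and sequence. Each run holds the 250 bases before the transcription start in the direction of the gene, from RefSeq on GRCm38.p6. Capitals mark matches, on either strand, to GCGNGGGCG, the letters of the motif of EGR zinc finger transcription factors.
Scn1a chr2:66440838-66441087 (minus strand): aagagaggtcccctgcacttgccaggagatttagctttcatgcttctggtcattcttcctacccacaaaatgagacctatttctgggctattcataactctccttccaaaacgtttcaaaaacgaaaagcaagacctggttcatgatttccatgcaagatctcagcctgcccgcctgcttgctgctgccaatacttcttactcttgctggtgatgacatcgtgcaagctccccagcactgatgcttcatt
Cacna1b chr2:24763153-24763402 (minus strand): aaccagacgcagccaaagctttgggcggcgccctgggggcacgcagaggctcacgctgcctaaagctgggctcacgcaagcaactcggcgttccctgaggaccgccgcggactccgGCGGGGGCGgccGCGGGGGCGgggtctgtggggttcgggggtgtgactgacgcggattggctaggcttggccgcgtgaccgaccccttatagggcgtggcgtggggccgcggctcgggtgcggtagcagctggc
Hcn2 chr10:79716384-79716633 (plus strand): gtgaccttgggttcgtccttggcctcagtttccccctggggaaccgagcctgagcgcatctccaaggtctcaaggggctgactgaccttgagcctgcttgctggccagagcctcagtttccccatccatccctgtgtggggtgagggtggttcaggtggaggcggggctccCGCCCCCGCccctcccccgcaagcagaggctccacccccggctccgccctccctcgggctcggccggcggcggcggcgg
Over the full window of 300 bases, which adds 50 bases after the start, GC content was 47.3% for Scn1a, 72.3% for Cacna1b and 72.3% for Hcn2, against a median of 52.7% over 32851 windows of all genes. The window of Cacna1b held 2 matches and that of Hcn2 held 1, while 5.55% of all windows held any. RefSeq windows were found for 7 members and not for Scn3a and Cacna1a. Scn8a and Cacna1c, each with more than 1 window, had 1 window with a match, and Scn2a and Cacna1e had none. The cyclic AMP response element (TGACGTCA) was searched on both strands too and had no match in a window of any member, against 1.79% of all windows. A match is a description of these letters and not a binding site.

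Library totals ran from 14371152 to 21092612 counts in controls, 16405517 to 56786613 after SCL and 20210165 to 46449937 after ECL, so the controls were sequenced less deeply. Genes whose normalized counts averaged 150 or more were tested by edgeR's quasi-likelihood test, with the spread between libraries of 1 culture each as the error, and those with a Benjamini-Hochberg adjusted p-value under 0.05 are called here. Scaling factors (TMM) came from the genes tested. Factors from all symbols shifted the median log2 fold change after SCL from 0.01 to 0.21, and the calls from 1504 higher and 1344 lower to 2516 and 596. For ECL the shift was from -0.01 to 0.18, and the calls went from 1708 and 1406 to 2435 and 695. Of 12 microglia genes, 12 were called higher after SCL and 9 after ECL, and their summed level was 1001 to 1183 CPM (counts per 1000000 counts of the scaled library) in controls, 1858 to 3501 after SCL and 1888 to 2681 after ECL. Of 12 pan-neuronal genes, 4 were called lower after SCL, and 6 lower and 1 higher after ECL, with summed levels of 4869 to 5770.2, 4316 to 5398 and 4129 to 5721. Of 7 CA1 pyramidal cell genes, 1 was called lower after SCL and none after ECL, with summed levels of 360.5 to 501, 346 to 456 and 409 to 514. Genes of CA3 pyramidal cells were detected too, with summed levels of 391 to 508, 252 to 406 and 245 to 363, and of 4 tested 2 were called lower with each lesion. The 7 dentate granule cell genes summed to 138 to 233, 98.5 to 167 and 94.6 to 209, with 1 of 3 tested called lower with each lesion. Of 8 interneuron genes, 1 was called higher and 1 lower after SCL, and 1 and 2 after ECL. Of 8 astrocyte genes 4 and 3 were called higher, of 9 oligodendrocyte genes 2 and 2, and of 3 vascular genes tested 1 was called lower with each lesion. The part of these shifts in the values below was not tested, and in a tissue isolate fewer cells of a type cannot be told apart from less RNA per cell.

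In CPM per kilobase of exon, a scale that takes gene length into account, Scn2a had the highest level in controls with 25.5 ± 2.25 (SD, n = 5). Scn1a with 19.1 ± 1.49 and Scn8a with 9.92 ± 1.06 followed. Cacna1b (6.43 ± 0.711), Cacna1e (5.89 ± 1.37), Scn3a (5.42 ± 0.857) and Cacna1a (4.96 ± 1.40) came next, and each overlapped in range with its neighbour in this order. Cacna1c had 1.95 ± 0.186, and Hcn2 was lowest with 0.118 ± 0.0657. The same order of means was found after SCL and after ECL. Exon length here is merged over all annotated transcripts of a gene. It is 25228 bases for Cacna1e and 21191 for Cacna1c, against 14921 and 13162 in their longest transcripts. The order from Cacna1b to Cacna1a depends on this choice of length.

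**Figure D1:**
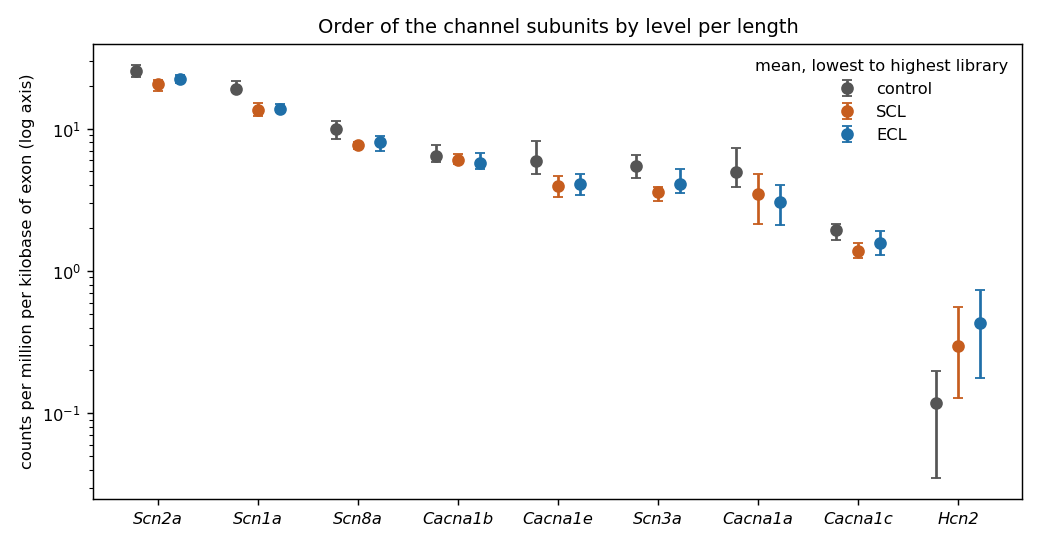
Level of each of the 9 channel subunits in CPM per kilobase of exon on a log axis, as the mean of the control, SCL and ECL libraries with bars from the lowest to the highest library. Scn2a leads with a control mean of 25.5 and Hcn2 comes last with 0.118, and the order of the means is the same in all 3 groups.

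With the minimum of 150, 8 of the 9 members were tested and Hcn2 was not. After SCL, 5 of the 8 were called lower and 0 higher, where 11.8% of all 11438 genes tested were called lower and 13.1% higher: Scn1a, Scn3a, Scn8a, Cacna1c and Cacna1e. Their log2 fold changes lay between -0.61 and -0.37, corresponding to decreases of 22.7% to 34.3%. For 6 of the 8, the called genes and Scn2a, all SCL libraries lay below all controls in CPM scaled over the genes tested. This held for 11.5% of genes tested. After ECL, 3 of the 8 were called lower and 0 higher, where 12.5% of all 11212 genes tested were called lower and 15.2% higher: Scn1a, Cacna1a and Cacna1e. For 2 of them, Scn1a and Cacna1e, all ECL libraries lay below all controls, which held for 12.2% of genes tested. Over the 8 members the median was -0.49 with SCL and -0.35 with ECL (log2 fold change), against 0.01 and -0.01 over all genes. Both comparisons share the 5 controls, so they are not independent. With scaling factors from all symbols edgeR called no member in either comparison, with 3 of 8 after SCL and 1 of 8 after ECL at an unadjusted p under 0.05, and the medians of the members were -0.29 and -0.16. Whether the groups stay apart with those factors was not examined.

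**Figure D2:**
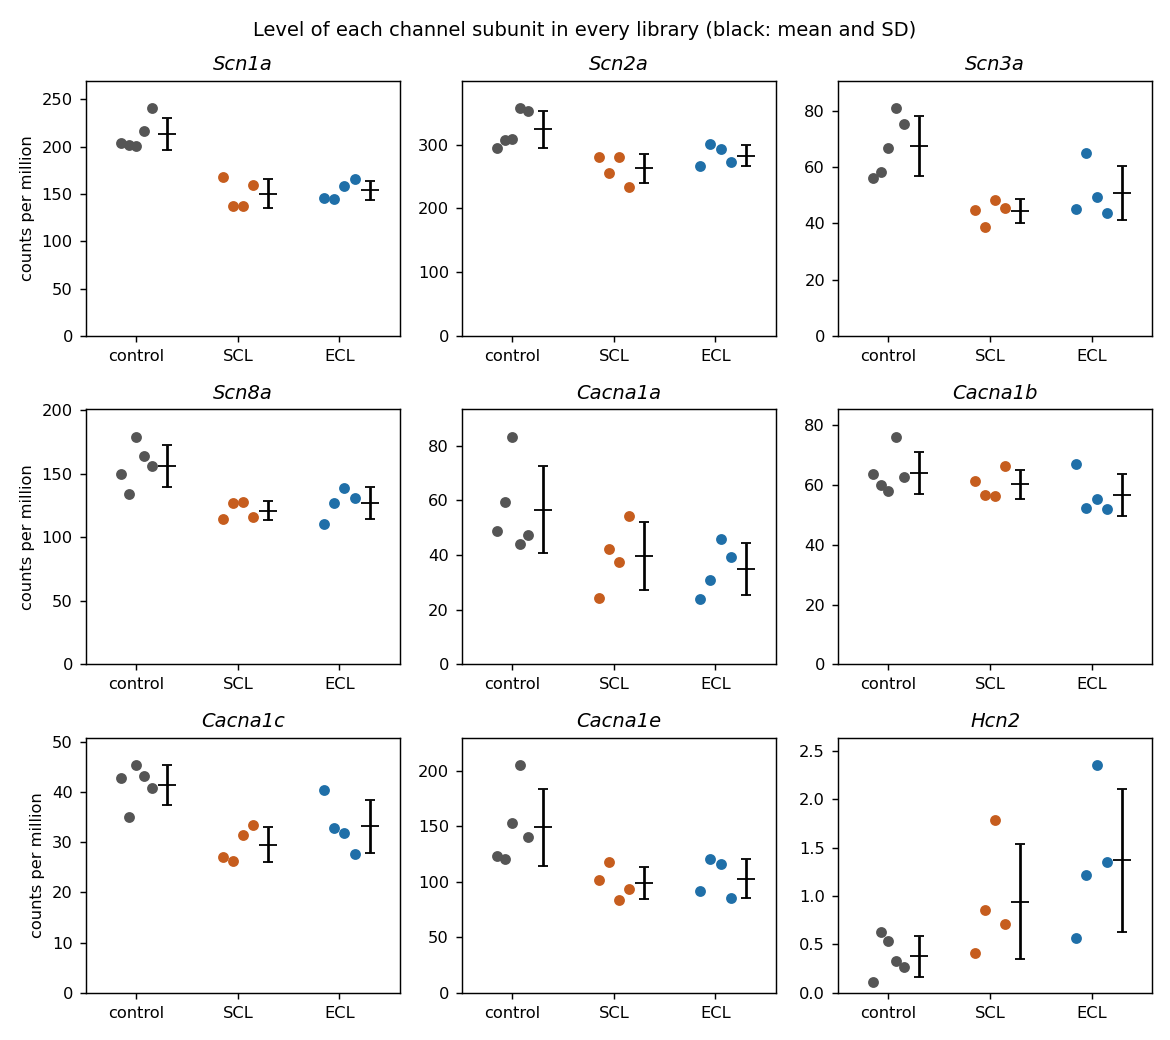
Level of each channel subunit in CPM on axes that start at 0, with 1 point for each of 5 control, 4 SCL and 4 ECL libraries and the mean and SD in black beside each group. With scaling over the genes tested, the SCL libraries lie below all controls for Scn1a, Scn2a, Scn3a, Scn8a, Cacna1c and Cacna1e. Hcn2, at 2 to 67 raw counts, is highest in lesioned cultures, but SCL replicate 1 and ECL replicate 1 lie within the controls.

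Among the sodium channels, Scn1a, which carries much of the sodium current of parvalbumin interneurons, had 204, 202, 200.5, 216 and 240.3 CPM in the controls. It had 168, 137, 137 and 159 CPM after SCL and 146, 145, 158 and 166 CPM after ECL. Both lesioned groups lay below every control and overlapped each other. Scn1a fell by 0.50 on the log2 scale after SCL (standard error 0.12, adjusted p = 0.0116, edgeR) and by 0.46 after ECL (standard error 0.12, adjusted p = 0.0137, edgeR). It was the member called after both lesions in every fit that left out 1 library. With a minimum of 10 it stayed just within the threshold (edgeR, adjusted p = 0.0480 for SCL and 0.0489 for ECL), where 7.49% and 11.5% of genes were called lower.

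Scn3a, an isoform that prevails in the immature brain, had 56.1, 58.4, 66.9, 80.9 and 75.4 CPM in controls. After SCL it had 44.7, 38.6, 48.5 and 45.6 CPM, all below the controls, and it fell by 0.61 on the log2 scale (standard error 0.15, adjusted p = 0.0115, edgeR). After ECL it had 45.3, 64.9, 49.3 and 43.7 CPM. ECL replicate 2 stood within the controls and the other 3 below them. The log2 fold change after ECL was -0.40 (standard error 0.17, adjusted p = 0.0859, edgeR), and without ECL replicate 2 it was -0.54 and past the threshold (adjusted p = 0.0419, edgeR).

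Scn8a, the subunit that accumulates at the axon initial segment and nodes of Ranvier of mature neurons, had 149.8, 134, 179, 164 and 156 CPM in controls. It had 114, 127, 128 and 116 CPM after SCL and 110.1, 127, 139 and 131 CPM after ECL. The SCL libraries lay below all controls, whereas ECL replicate 3 lay above the lowest control. Scn8a fell by 0.37 on the log2 scale after SCL (standard error 0.12, adjusted p = 0.0398, edgeR), a call close to the threshold that was lost in 8 of 9 fits with 1 library left out (adjusted p up to 0.0874) and held without control replicate 2. Over all alternatives this call was lost in 15 of 20, among them DESeq2, scaling factors from all symbols and the minimum of 10. The log2 fold change in these alternatives ran from -0.43 to -0.05. Its log2 fold change after ECL was -0.30 (standard error 0.13, adjusted p = 0.110, edgeR).

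Scn2a, found mainly on the axons of excitatory neurons and the most abundant member, ranged from 295 to 357 CPM in controls, 234 to 281 in SCL and 266 to 301 in ECL libraries. SCL libraries did not reach the lowest control, while ECL libraries overlapped the controls. Its log2 fold changes were -0.30 after SCL (standard error 0.12, adjusted p = 0.0856, edgeR) and -0.19 after ECL (standard error 0.12, adjusted p = 0.284), neither past the threshold. Of the summed level of the 4 sodium channel members per kilobase, Scn2a took 42.5% ± 1.07 in controls (SD, n = 5), against 45.5% ± 2.33 for SCL and 46.2% ± 1.22 for ECL (n = 4 each). Every ECL library was above every control in this share (difference of 3.67 percentage points, two-sided exact permutation test, p = 0.00794, the smallest that 5 against 4 libraries allow). After adjustment over 27 tests of shares it did not pass the threshold (adjusted p = 0.0714, exact permutation test).

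Among the calcium channels, Cacna1e, the subunit of the R-type current of dendrites and spines, had 123, 120.4, 153, 205 and 140.3 CPM in controls. After SCL it had 102, 118, 83.8 and 93.2 CPM, and after ECL 91.5, 120.3, 116 and 85.6 CPM. All lesioned libraries lay below the controls, with ECL replicate 2 at nearly the value of control replicate 2. Control replicate 4 was highest by a wide gap. Cacna1e fell by 0.58 on the log2 scale after SCL (standard error 0.17, adjusted p = 0.0245, edgeR) and by 0.51 after ECL (standard error 0.18, adjusted p = 0.0434, edgeR). The call after SCL was lost without SCL replicate 3 (adjusted p = 0.0789, edgeR) or SCL replicate 4 (0.0536). The call after ECL was lost without ECL replicate 1 (0.112), ECL replicate 4 (0.140), or control replicates 3 (0.0685), 4 (0.0845) or 5 (0.0653). With a minimum of 10 neither call of Cacna1e held (edgeR, adjusted p = 0.0565 for SCL and 0.0859 for ECL). Over all alternatives the call was lost in 8 of 20 after SCL and in 13 of 20 after ECL, the latter also with DESeq2.

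Cacna1c, the main L-type subunit of neurons, which couples calcium entry to transcription, had 42.8, 35.0, 45.3, 43.2 and 40.7 CPM in controls. It had 27.1, 26.2, 31.5 and 33.4 CPM after SCL, all below the controls. It had 40.3, 32.8, 31.8 and 27.6 CPM after ECL, of which replicate 1 lay within the controls. Cacna1c fell by 0.49 on the log2 scale after SCL (standard error 0.14, adjusted p = 0.0266, edgeR), and its log2 fold change after ECL was -0.31 (standard error 0.16, adjusted p = 0.149). The call after SCL was lost without SCL replicate 1 (adjusted p = 0.0682, edgeR), 2 (0.0831) or 3 (0.0535), or control replicate 1 (0.0562) or 3 (0.0511). Over all alternatives it was lost in 10 of 20.

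Cacna1a, the subunit of P/Q-type channels that trigger transmitter release, varied more between libraries, with 48.7, 59.3, 83.3, 44.2 and 47.4 CPM in controls. It had 24.3, 42.3, 37.6 and 54.5 CPM after SCL and 24.0, 30.8, 45.9 and 39.4 CPM after ECL. SCL replicate 4 and ECL replicate 3 lay above the lowest control. Cacna1a fell by 0.69 on the log2 scale after ECL (standard error 0.23, adjusted p = 0.0358, edgeR), while its value after SCL was -0.52 (standard error 0.24, adjusted p = 0.133). The call after ECL was lost without ECL replicate 1 (adjusted p = 0.118, edgeR), 2 (0.0988) or 4 (0.0585), or control replicate 2 (0.0581) or 3 (0.0829), and with a minimum of 10 (-0.61, adjusted p = 0.0585, edgeR).

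Cacna1b, the subunit of N-type channels at presynaptic terminals, had the smallest fold changes of the 8 members in scaled counts. It ranged from 58.0 to 76.0 CPM in controls, 56.2 to 66.4 in SCL and 51.8 to 66.9 in ECL libraries, and all 3 groups overlapped. Its log2 fold changes were -0.09 after SCL (standard error 0.13, adjusted p = 0.641, edgeR) and -0.17 after ECL (standard error 0.14, adjusted p = 0.403), and with scaling factors from all symbols they turned to 0.12 and 0.03. Its share of the 4 calcium channel members per kilobase was 33.6% ± 3.59 in controls (SD, n = 5) and 40.9% ± 3.31 after SCL (n = 4), with no overlap. This difference of 7.25 percentage points had a two-sided exact permutation p = 0.00794, the smallest possible, and an adjusted p = 0.0714 over the 27 shares. After ECL the share was 39.5% ± 5.09 (exact permutation test, p = 0.0238, adjusted p = 0.161).

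Hcn2, one of the HCN subunits of pyramidal cell dendrites, was counted close to the limit of detection, and its levels were higher in most lesioned cultures. Its raw counts were 2, 12, 8, 6 and 4 in controls, 11, 50, 67 and 12 after SCL and 25, 28, 49 and 31 after ECL. In CPM, the controls had 0.112, 0.632, 0.541, 0.328 and 0.269, the SCL libraries 0.409, 0.860, 1.79 and 0.712, and the ECL libraries 0.564, 1.22, 2.35 and 1.35. SCL replicate 1 and ECL replicate 1 lay within the controls, and the rest lay above them. With a minimum mean count of 10, Hcn2 rose by 1.92 on the log2 scale after ECL (standard error 0.63, adjusted p = 0.0386, edgeR), where 11.4% of the 21159 genes tested were called higher. For SCL the value was 1.40 (standard error 0.66, adjusted p = 0.153, edgeR), where 9.19% of 21705 genes were called higher. This minimum is a mean over both groups compared. Hcn2 had 2 to 12 raw counts in controls and reached it through the lesioned libraries, so at this minimum only a rise could be tested. The call after ECL was lost in 7 of 9 fits with 1 library left out, among them those without ECL replicate 3 (log2 fold change 1.55, adjusted p = 0.131, edgeR) and control replicate 1 (1.68, adjusted p = 0.0785), and held without ECL replicate 1 and control replicate 2. Low counts in these files were even more often than odd, so that the number of fragments behind these counts may be smaller still.

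The direct comparison of ECL with SCL asked whether the site of the cut mattered for these genes. By the column headings, ECL replicate 1 was female and replicates 2, 3 and 4 were male. SCL replicates 1, 2 and 3 were female and replicate 4 was male, so site and sex are largely confounded. None of the 8 members tested was called, and none had an unadjusted p-value under 0.05. Over all 12232 genes tested, 0% were called by edgeR, while 897 genes had an unadjusted p-value under 0.05 and DESeq2 called 65. The log2 differences of the members ran from -0.17 for Cacna1a (standard error 0.26) to 0.21 for Scn3a (standard error 0.15), and the 2 groups overlapped for all 8, while 3.83% of all genes showed no overlap. Scn1a differed by 0.05 (standard error 0.12, adjusted p = 0.972, edgeR). Hcn2, with the minimum of 10, differed by 0.50 (standard error 0.51, adjusted p = 0.875). That some members were called after 1 lesion only is thus not shown as a difference between lesions.

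The 8 members tested belong to the long genes of the table, and length moved with the fold changes of all genes. The median log2 fold change over genes with a longest transcript under 2000 bases was 0.36 after SCL and 0.41 after ECL, and over those of at least 8000 bases it was -0.33 and -0.27. Of the longest class, 31.3% were called lower after SCL and 23.0% after ECL. Among the genes of at least 6000 bases, which hold all 8 members, 25.4% of 1907 were called lower after SCL and 20.8% of 1885 after ECL. An offset was also fitted for each library, for exon length merged over the transcripts of a gene and for GC content. With it the median of these long genes became -0.00 and 0.02. The members then had log2 fold changes from -0.32 to 0.06 (SCL) and from -0.56 to 0.07 (ECL). With this offset edgeR called 0 members after SCL, where 2 had an unadjusted p under 0.05, and 1 after ECL, Cacna1a at -0.56 (standard error 0.13, adjusted p = 0.00680, edgeR). Scn1a moved to -0.27 for SCL (edgeR, adjusted p = 0.105) and -0.23 for ECL (0.166), and Scn3a to -0.32 after SCL (0.0793). Cacna1e, the longest member, moved furthest, to -0.07 and -0.06. Hcn2, shorter and richer in GC, had 1.35 and 1.69 with the minimum of 10 and the offset (adjusted p = 0.141 and 0.0382, edgeR), against 1.40 and 1.92 with that minimum alone. Whether length and GC content as such lie behind the lower counts was not tested.

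**Figure D3:**
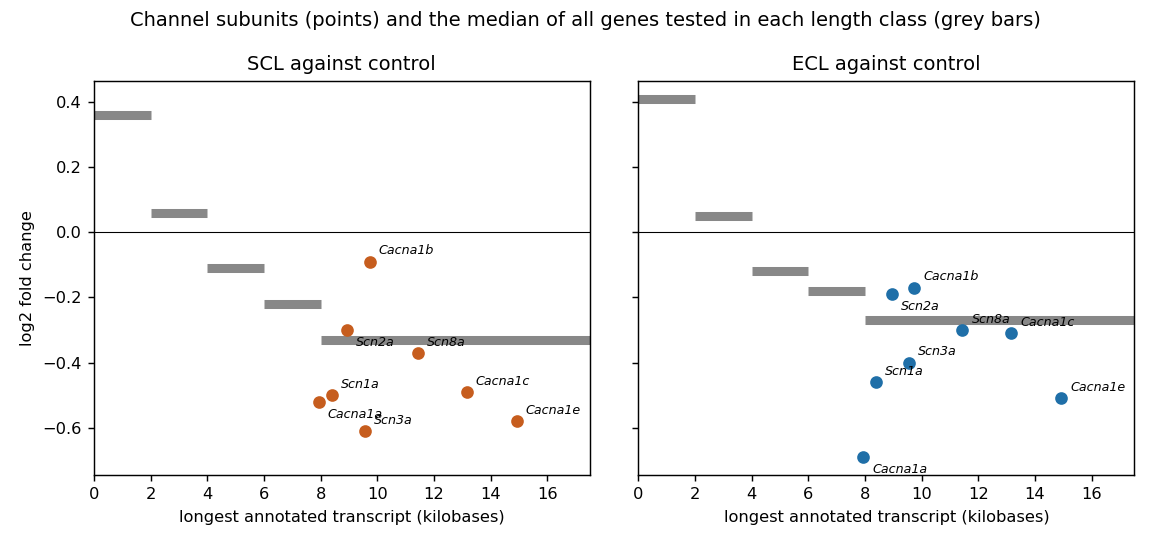
Log2 fold change of the 8 members tested (points) after SCL and ECL against the length of the longest annotated transcript in kilobases, with the median of all genes tested in each length class as grey bars, the last class being open upward. The medians run from 0.36 to -0.33 (SCL) and from 0.41 to -0.27 (ECL), and Scn2a and Cacna1b are the members above the bar of their class.

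**Figure D4:**
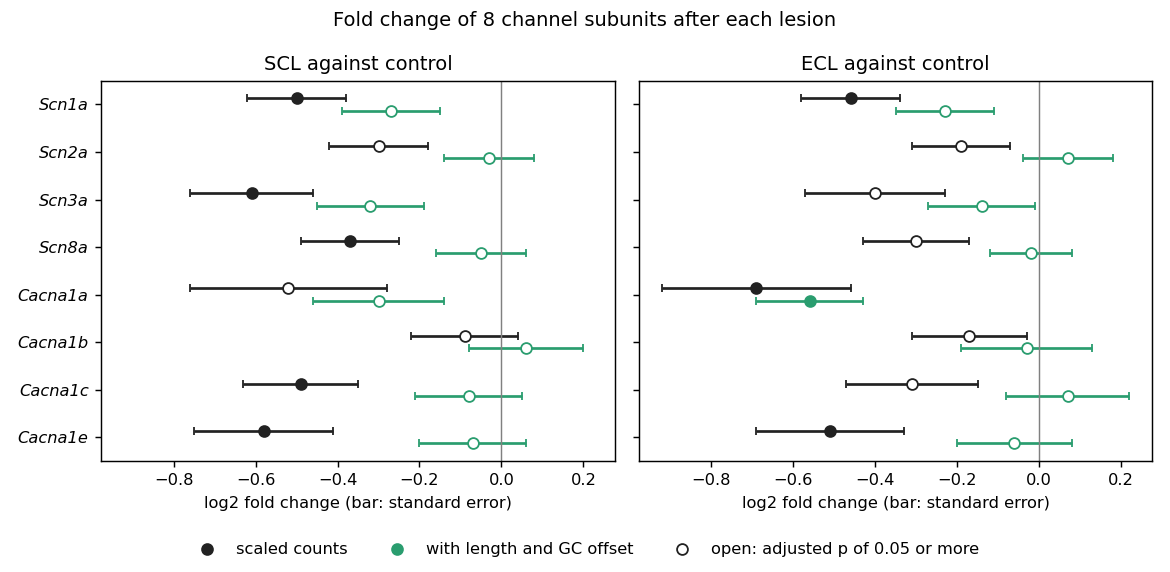
Log2 fold change with its standard error for 8 members after SCL and ECL. Scaled counts are black, and values with an offset for merged exon length and GC content are green. Filled points have an adjusted p-value under 0.05. With the offset the only filled point is Cacna1a after ECL at -0.56.

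Lists of channel genes beside the members held 6 further sodium channel alpha subunits and 11 sodium channel beta subunits and intracellular partners. They also held 6 further calcium channel alpha1 subunits and 8 auxiliary calcium channel subunits. Further lists held the HCN genes Hcn3 and Hcn4 with the HCN partner Pex5l, and 4 genes of the NALCN sodium leak channel complex. None of the 6 further sodium channel genes reached the minimum of 150. With a minimum of 10, Scn9a, a relative of Scn1a in the same cluster, was called lower for both lesions, by -1.26 on the log2 scale with SCL (edgeR, adjusted p = 0.0111) and by -1.20 with ECL (adjusted p = 0.00478). At that minimum 7.49% of genes were called lower after SCL and 11.5% after ECL. Of the beta subunits and partners, 1 of 9 tested was called lower after SCL, namely Fgf11 (-0.53, adjusted p = 0.0175, edgeR). After ECL 1 of 10 was called lower, Fgf12 (-1.17, adjusted p = 0.00995, edgeR), and 1 higher, Sptbn4 (0.81, adjusted p = 0.0402). Over all genes tested, 11.8% were called lower after SCL, and 12.5% lower and 15.2% higher after ECL. The counts of this list are near those shares. The call of Fgf11 was lost in 3 of 20 alternatives, none of which left out a library, and that of Fgf12 in none of 20. Sptbn4 lost its call in 6 of 17, among them the fits without ECL replicate 4 (adjusted p = 0.0795, edgeR) and control replicates 1 (0.0636), 4 (0.0710) or 5 (0.0797). Fgf11 and Fgf12 are intracellular fibroblast growth factor homologues that bind the sodium channel tail. Sptbn4 codes for the spectrin that anchors channels at the axon initial segment. Raw counts of Sptbn4 were 56 to 139 in controls and 178 to 424 after ECL. It reached the minimum of 150, a mean over both groups compared, through the ECL libraries, so only a rise could be tested.

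Of 3 further calcium channel alpha1 genes tested, Cacna1d of the L-type was called lower after SCL (-0.60, adjusted p = 0.0294, edgeR) and Cacna1i of the T-type higher after ECL (1.09, adjusted p = 0.0215). The shares over all genes tested were 11.8% called lower after SCL and 15.2% called higher after ECL. The call of Cacna1d was lost in 10 of 20 alternatives, among them the fits without SCL replicate 1 (adjusted p = 0.0841, edgeR), 2 (0.0603) or 3 (0.0888) or control replicate 3 (0.0621). That of Cacna1i was lost in 2 of 19, with the sex term and without ECL replicate 3 (0.81, adjusted p = 0.0783, edgeR). Of the auxiliary subunits, 7 were tested after SCL and 6 after ECL. In each comparison 1 was called higher and 1 lower, and both code for beta subunits, which bring the pore to the membrane. These counts are near the shares over all genes, 13.1% higher and 11.8% lower after SCL, and 15.2% and 12.5% after ECL. Cacnb1 rose from 5.39 ± 2.07 CPM (SD, n = 5 controls) to 11.7 ± 3.63 (SCL) and 15.5 ± 4.55 (ECL, n = 4 each), a log2 rise of 1.11 (edgeR, adjusted p = 0.0238) and of 1.53 (adjusted p = 0.00263). Cacnb2 fell from 47.3 ± 10.8 CPM to 21.7 ± 5.97 and 26.5 ± 3.69, by 1.13 (adjusted p = 0.00438, edgeR) and 0.83 (adjusted p = 0.00566) on the log2 scale. The rise of Cacnb1 after SCL lost its call without SCL replicate 3 (adjusted p = 0.0762, edgeR), control replicate 1 (0.0529) or 5 (0.0505). The fall of Cacnb2 after ECL lost its call with the length and GC offset (adjusted p = 0.0607, edgeR). Raw counts in controls were 50 to 130 for Cacnb1 and 50 to 148 for Cacna1i, below the minimum of 150. That minimum is a mean over both groups compared, and these genes reached it through the lesioned libraries. From such control levels only a rise could be tested.

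Hcn3 and Hcn4 stayed below the minimum, with 1.06 ± 0.550 and 3.07 ± 1.27 CPM in controls. Pex5l, which codes for a protein that binds HCN channels and directs them to the membrane, fell from 127 ± 19.0 CPM to 60.5 ± 7.91 after SCL and 71.1 ± 22.7 after ECL, by 1.07 (adjusted p = 0.00126, edgeR) and 0.83 (adjusted p = 0.00943) on the log2 scale. It was called lower after each lesion under each of the 20 alternatives. Of the 4 NALCN complex genes tested, Nalcn (-0.45, adjusted p = 0.0298, edgeR) and Unc80 (-0.35, adjusted p = 0.0441) were called lower after SCL, and Nalcn (-0.48, adjusted p = 0.0373) after ECL. Over all genes tested, 11.8% were called lower after SCL and 12.5% after ECL. The calls of Nalcn and Unc80 were close to the threshold. After SCL that of Unc80 was lost in 16 of 20 alternatives and that of Nalcn in 10 of 20. For Unc80 they include every fit with 1 library left out except that without control replicate 3 (adjusted p from 0.0531 to 0.103, edgeR), and for Nalcn those without SCL replicate 1 (0.0569), 2 (0.0716) or 3 (0.0882) or control replicate 3 (0.0584). The call of Nalcn after ECL was lost in 13 of 20, among them DESeq2 and the fits without ECL replicate 3 (edgeR, adjusted p = 0.0965) or 4 (0.119) or control replicate 3 (0.0657), 4 (0.0626) or 5 (0.0504).

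None of the 24 comparisons of shares within the sodium and calcium channel members passed the threshold (exact permutation tests), with 1 after SCL, 3 after ECL and 0 between lesions at an unadjusted p under 0.05. The order of the sodium channels by mean level per kilobase, Scn2a first, then Scn1a, Scn8a and Scn3a, was the same in each group. Across the 13 libraries, the 28 pairs formed by the 8 abundant members had a median Pearson correlation of log2 levels of 0.62, and within groups, after removal of group means, of 0.09, with the highest value for Scn2a and Scn3a (0.90 and 0.72). Libraries share their depth and group, so these values are a description. Of the 11641 other genes compared, those whose profile over the 13 libraries was most like the mean of the members were Erc1, 4632415L05Rik and Ankrd12 (Pearson r of 0.97 each), and Cdk5r1 and Smc1a (0.96 each). Their log2 fold changes ran from -1.28 to -0.59 (SCL) and from -1.08 to -0.45 (ECL). These genes were picked for their likeness over the same libraries, so the shared direction follows from the choice.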

How the data were processed

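RNA from 13 CA1 isolates was sequenced as 150-base pairs. The authors trimmed reads with cutadapt 3.5, mapped them with STAR 2.7.8a to mm10 (GRCm38) and counted them per gene with featureCounts 2.0.1 on GENCODE M25 without regard to strand. What they deposited are raw counts for 55291 symbols, and the authors did not normalize them. Of the counts from 1 to 20, 63.0% to 74.3% were even in each library, as when both mates of a pair are counted.

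SCL and controls, ECL and controls, and both lesions were compared in 3 separate fits (edgeR 4.0.16 in R 4.3.3, estimateDisp, glmQLFit, glmQLFTest, two-sided, Benjamini-Hochberg over all genes tested). Standard errors were derived from the F statistic of that test. Levels in CPM were scaled by TMM over the genes tested. Lengths, GC content and coordinates came from GENCODE M21, which held 53292 of the symbols, and both properties were known for 98.6% to 98.8% of the genes tested. The offset for length (exons merged over transcripts) and GC content (longest transcript) was fitted per library with mgcv 1.9.3. Correlations used log2 CPM with a pseudocount of 0.5. Shares within families were compared with exact permutation tests, adjusted over 27, of which 3 are not reported here (SciPy 1.17.1).

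The members and lists were chosen with earlier results of these data known. Named were all 9 members, Hcn3 and Hcn4, the 5 genes most like the members, and per channel list and lesion at most 2 called genes in each direction. Gm16183 and Scn9a are named beside this rule, after their values were seen. In simulated data with 200 changed genes in the SCL design, over 11335 genes, 68.4% of 2-fold and 100% of 4-fold changes were recovered. Every simulated gene had the same spread, and the 8 members tested changed by less than 2-fold. The simulation thus cannot say how often changes of their size are missed. Replicate numbers from the sample titles showed no steady pairing of the libraries: the correlations of same-numbered deviations ran from -0.17 to 0.55. The column headings give other numbers, and libraries with the same heading number and sex showed no steady pairing either. Correlations ran from -0.42 to 0.02 over 4 pairs of SCL and control libraries and from -0.21 to 0.17 over 3 of ECL and control. For the 2 pairs of ECL and SCL they were -0.09 and 0.55, and 1 of these pairs was a best match. So few pairs cannot exclude that some libraries share an animal or preparation. Sex, read from the column headings, was not balanced between groups. The labels give no batch or date, so no comparison within batches was made. Alternatives were DESeq2 1.42.0, other scalings and filters, a single fit, terms for sex and replicate, the offset, halved counts and leaving out each library. The offset and the leaving out of libraries at the minimum of 10, used for Hcn2, were added after seeing the data.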

Additional observations from a re-analysis of the deposited data

How the results depend on the processing

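For the 56 log2 fold changes of members and other channel genes, 1062 alternative values were computed: 900 kept their direction and their side of the threshold, 138 lost the call, 5 gained one and 19 changed sign. Many of the 56, among them all those between lesions, were not called in the main fit and had no call to lose. The 900 are therefore no measure of how stable the calls were, and all 138 losses fell on the called values. The number of members called, 5 after SCL and 3 after ECL, became 0 and 0 with scaling factors from all symbols, 2 (SCL: Scn1a, Scn3a) and 2 (ECL: Scn1a lower, Hcn2 higher) with a minimum of 10, 0 and 1 (Hcn2, higher) without a filter, 0 and 1 with the length and GC offset, and 2 to 5 and 1 to 3 with 1 library left out. The replicate number of the titles entered as a block gave 3 members after SCL (Scn1a, Scn3a, Cacna1c) and 1 after ECL (Cacna1a), and the block with the offset gave 0 and 1. The block called 2342 genes after SCL, 2663 after ECL and 0 between lesions. The title numbers showed no steady pairing: 0 of 4 lesioned libraries after SCL and 1 of 4 after ECL correlated best with the control of their own number. DESeq2 called 4 members after SCL and 2 after ECL. Over all genes, the 2848 calls after SCL became 5390 without a filter and 1679 to 2797 with 1 library left out. The 3114 calls after ECL became 4854 with a minimum of 10, 8034 without a filter and 2088 to 3062 with 1 library left out. The 0 calls between lesions became 65 with DESeq2, 217 without a filter, 1 in a fit of all libraries, 1 with a sex term and 0 to 54 with 1 library left out. The 0 shares called stayed at 0 under each alternative.

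Signs changed as follows. Cacna1b after SCL had a log2 fold change of 0.12 with factors from all symbols, 0.12 without a filter, 0.06 with the offset and 0.07 with block and offset, and after ECL 0.03 with factors from all symbols and 0.03 without a filter. After ECL, Scn2a had 0.07 with the offset and 0.09 with block and offset, and Cacna1c 0.07 and 0.04. Between lesions, the sex term gave -0.01 for Scn1a and -0.07 for Pex5l, and fits without 1 library ran from -0.01 to 0.11 for Scn1a, -0.34 to 0.02 for Cacna1a, -0.01 to 0.15 for Cacna1e, -0.11 to 0.06 for Nalcn and -0.02 to 0.09 for Unc80. The cause of these changes was not tested. Leaving out SCL replicate 3 left Scn1a and Scn3a as the members called after SCL. At 2 to 67 counts, the depth limits what can be said of Hcn2.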
